A study of Mus musculus with 24 samples.

Results

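The genes described here are 9 members of the transforming growth factor beta (TGF-beta) system of the mouse, out of 36528 gene models counted in every library. Their rows were taken by mouse Entrez gene identifier, and all 9 were found. They comprise 4 ligand genes (Tgfb1, Tgfb2, Tgfb3 and Inhba), 2 latency genes (Ltbp1 and Ltbp3) and 3 genes known as TGF-beta targets (Pmepa1, Ccn2 and Tgfbi). The set was chosen with the change of fibroblastic reticular cells (FRC) under polyethylene glycol (PEG) already known, so that change is given as a description and without a test. The change in high endothelial venule (HEV) cells and the contrast of the cell types were tested. The contrast of the cell types uses the same FRC libraries, so its tests are not independent of that choice.

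RNA was sequenced from 24 libraries of FRC and HEV endothelial cells, sorted from the Peyer's patches of mice, 1000 cells per mouse. FRC are the fibroblasts that build the reticular scaffold of lymphoid tissue, and HEV are the specialised venules through which lymphocytes enter it. Mice of the PEG groups drank 10% (w/v) PEG freely in their water for 3 days, a treatment meant to lower fluid flow, and control mice were unperturbed. HEV gave 6 libraries from PEG mice and 4 from control mice, and FRC gave 7 from PEG mice and 7 from control mice. The labels give no genotype or transgene that separates the groups. Whether FRC and HEV libraries came from the same mice is not stated in the labels, so p-values between the cell types may rest on libraries that share a mouse.

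TGF-beta ligands are secreted in a latent form, held by their own propeptide and tethered to matrix by latent TGF-beta binding proteins. Integrins and proteases release the ligand, which binds a pair of serine/threonine kinase receptors and sends SMAD proteins to the nucleus. Inhba encodes the subunit of activin A, a relative that uses its own receptors and the same SMAD branch. In lymphoid stroma and gut the pathway is known for matrix production and for restraint of inflammation.

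The labelled cell types matched most of their markers. The summed level of 10 fibroblast markers was 5.617 to 62.25 CPM (the count scaled to a fixed library total) in HEV PEG and 18.83 to 487.7 CPM in HEV control libraries, against 23210 to 33040 CPM in FRC PEG and 22730 to 36140 CPM in FRC control libraries. The T-zone chemokine Ccl19, a fibroblast marker of lymph nodes, was close to absent, with a highest level of 1.186 CPM in FRC PEG and 1.551 CPM in FRC control libraries. The summed level of 11 endothelial markers was 7620 to 10640 CPM in HEV PEG and 7387 to 10790 CPM in HEV control libraries, against 92.26 to 253.7 CPM in FRC PEG and 89.07 to 306.4 CPM in FRC control libraries. The 4 venule markers summed to 10300 to 18730 CPM in HEV PEG and 11090 to 16280 CPM in HEV control libraries. In FRC they summed to 21.84 to 73.29 CPM under PEG and 16.86 to 343.7 CPM in controls. Among them Chst4 was low, at most 9.79 CPM in HEV PEG and 5.906 CPM in HEV control libraries. Libraries held 3115003 to 21710946 reads assigned to genes, and the smallest was HEV PEG library 16. A set of index pairs comes back every 8 libraries, and libraries 1 to 8, 9 to 16 and 17 to 24 were therefore treated as 3 sequencing pools. All FRC PEG libraries shared an i5 index and all HEV PEG libraries shared another. Under PEG, cell type and index therefore cannot be told apart. Both control groups held a mixture, so index and treatment cannot be fully told apart. The 8 smooth muscle and pericyte markers summed to 23.43 to 188.1 CPM in HEV PEG and 13.54 to 436 CPM in HEV control libraries, against 3471 to 5135 CPM in FRC PEG and 3393 to 5095 CPM in FRC control libraries. Levels of 16 intestinal epithelium markers varied widely, with a sum of 46.77 to 4337 CPM in HEV PEG and 16.58 to 5292 CPM in HEV control libraries, and 101.9 to 13100 CPM in FRC PEG and 61.53 to 2528 CPM in FRC control libraries.

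Start-site sequences are shown for 3 ligand genes that behaved differently: Inhba, whose level differed most between PEG and control FRC, Tgfb2, which was read almost only in FRC, and Tgfb1, which was low in both cell types. Each is the 250 bases before the RefSeq start in GRCm38.p6, read on the gene's strand, 5′ to 3′. Capitals mark the SMAD core motif CAGAC or its reverse complement GTCTG, searched on both strands. The Inhba window is at chr13:16011601-16011850 on the plus strand, the Tgfb2 window at chr1:186705990-186706239 on the minus strand and the Tgfb1 window at chr7:25686752-25687001 on the plus strand.
Inhba: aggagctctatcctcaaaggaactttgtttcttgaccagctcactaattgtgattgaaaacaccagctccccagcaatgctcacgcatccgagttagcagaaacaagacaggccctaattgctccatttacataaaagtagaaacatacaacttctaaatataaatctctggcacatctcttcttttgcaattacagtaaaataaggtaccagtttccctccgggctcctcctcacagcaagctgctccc
Tgfb2: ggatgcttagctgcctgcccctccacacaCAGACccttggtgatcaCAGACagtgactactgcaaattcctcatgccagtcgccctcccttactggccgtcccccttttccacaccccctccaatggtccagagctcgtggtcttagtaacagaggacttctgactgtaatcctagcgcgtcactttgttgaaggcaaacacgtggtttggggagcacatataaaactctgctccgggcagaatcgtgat
Tgfb1: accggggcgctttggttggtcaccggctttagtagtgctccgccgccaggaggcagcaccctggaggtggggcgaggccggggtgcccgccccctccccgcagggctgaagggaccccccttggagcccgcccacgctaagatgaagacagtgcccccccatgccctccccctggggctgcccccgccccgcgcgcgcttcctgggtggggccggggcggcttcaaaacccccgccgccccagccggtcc
The Tgfb2 window holds 2 matches to CAGAC, and the Inhba and Tgfb1 windows hold none of these letters. The motif occurs in 42.2% of 32851 promoter windows of this length, so a match in 1 gene is common. The windows also differ in base composition, with a G and C content of 43.2% for Inhba, 53.6% for Tgfb2 and 75.2% for Tgfb1. The table of start-site sequences matched 6 of the 9 genes, and Tgfb3, Pmepa1 and Ccn2 are only named. The counts carry no information on which start site was used.

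Most of the 9 genes were lower in HEV than in FRC. In controls 7 of 9 genes were lower in HEV than in FRC at an adjusted p under 0.05 (edgeR quasi-likelihood F test), against 14.2% of all 15743 genes tested. Under PEG 6 of 9 were lower in HEV, against 14.4% of 14991 genes. No member was higher in HEV in either comparison, against 10.4% of genes in controls and 12.5% under PEG. In 6 of the 9 genes every HEV library lay below every FRC library, in controls (11.3% of all genes tested) and under PEG (9.4%). The median log2 fold change of the 9 genes was -3.82 in controls and -3.01 under PEG, beside -0.16 and -0.08 over all genes tested. Tgfb2 and Inhba fell under the count filter within HEV, so they entered these comparisons through their FRC reads. Tgfb3 passed that filter over all HEV libraries together. Within each HEV group its reads were too few to pass, so it also entered these comparisons through its FRC reads. For a gene that enters this way the direction is largely fixed by the filter, so its call adds little. Under PEG every HEV library had another i5 index than every FRC library, so cell type and index cannot be told apart there. Because RNA was pooled over sorted cells, fewer cells making a transcript and less transcript per cell cannot be told apart.

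**Figure D1:**
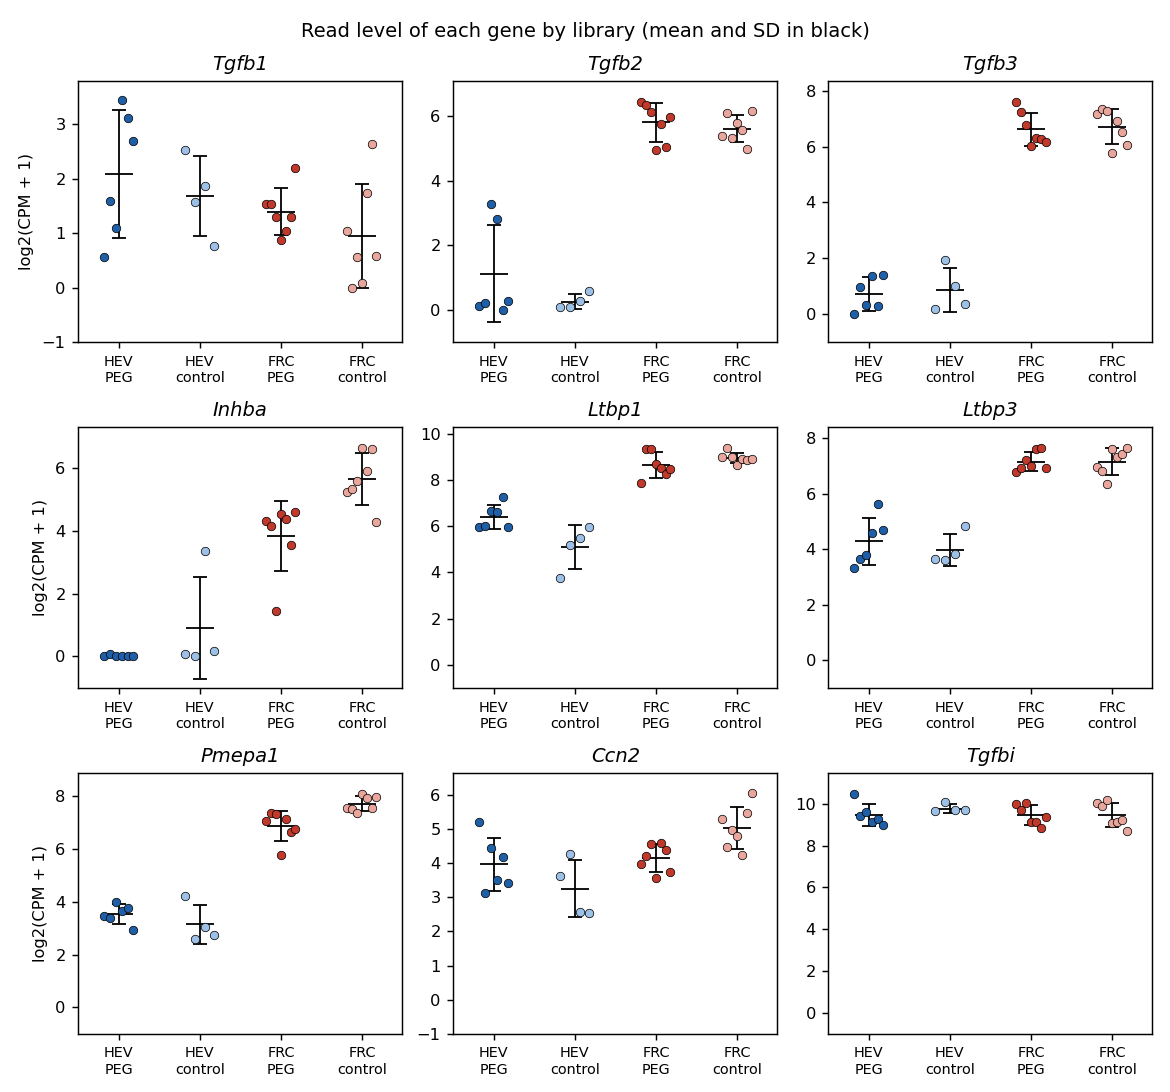
Level of each of the 9 genes in every library, as log2(CPM + 1), with 1 point per library, the mean as a line and the SD as an error bar. Tgfb2, Tgfb3, Inhba, Ltbp1, Ltbp3 and Pmepa1 lie lower in every HEV library than in every FRC library of the same treatment, while Tgfbi overlaps across all groups.

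Tgfb2, the isoform best known from mesenchymal and epithelial development, had 1, 3, 173, 19, 0 and 3 reads in HEV PEG libraries, at most 8.67 CPM, and 1, 1, 3 and 7 reads in HEV control libraries, at most 0.49 CPM. In FRC it was at 29.85 to 85.86 CPM (median 62.06) under PEG and at 30.84 to 69.87 CPM (median 46.14) in controls. All HEV libraries were therefore below all FRC libraries, and HEV PEG library 15 alone held most of the HEV reads. The log2 fold change of HEV over FRC was -6.24 ± 1.39 (SE; adjusted p = 0.00403) under PEG and -8.14 ± 0.73 (adjusted p = 9.14e-06) in controls. Tgfb2 entered both fits through its FRC reads, so these p-values are given as a description. From summed reads FRC PEG exceeded HEV PEG 24.4-fold (95% exact binomial interval 21.2 to 28.2), and 140.5-fold (95.8 to 215.2) without library 15. These intervals cover counting error only and not the spread between libraries.

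Tgfb3, an isoform known for its part in palate closure, had 0, 17, 5, 5, 3 and 24 reads in HEV PEG libraries, at most 1.66 CPM, and 2, 48, 15 and 4 reads in HEV control libraries, at most 2.80 CPM. In FRC it was at 63.95 to 190.9 CPM (median 78.81) under PEG and 53.4 to 160.2 CPM (median 118) in controls. The cell types did not overlap. HEV over FRC was -6.94 ± 0.77 on the log2 scale (adjusted p = 1.26e-05) under PEG and -6.63 ± 0.81 (adjusted p = 9.86e-05) in controls. Tgfb3 entered both fits through its FRC reads, so these p-values are given as a description.

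Inhba was read at 3 or fewer reads in every HEV library but 1. HEV PEG libraries held 1 read of it in all, in library 14, while FRC PEG libraries held 28 to 405 reads each. The ratio of FRC PEG to HEV PEG from summed reads was 1297, with a 95% interval of 232.4 to 51240 that covers counting error only. HEV control libraries held 1, 0, 135 and 2 reads, and FRC control libraries held 300 to 1765. Library 17 thus carried almost all HEV control reads. The 10 fibroblast markers summed to 34.71 CPM in that library and to 41.13, 487.7 and 18.83 CPM in HEV control libraries 8, 9 and 24, and their part in the Inhba reads was not tested. The log2 fold change of HEV over FRC was -9.90 ± 1.10 (adjusted p = 1.21e-05) under PEG and -6.13 ± 1.68 (adjusted p = 0.0199) in controls. Inhba entered both fits through its FRC reads, so these p-values are given as a description. In controls it was -9.56 without library 17, -4.74 without library 9, and the call was lost without library 8 (adjusted p = 0.0699).

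Tgfb1, the isoform that leukocytes and platelets are known to supply, was the scarcest member in FRC. It had 0.48 to 9.95 CPM in HEV PEG against 0.84 to 3.60 CPM in FRC PEG libraries, and 0.69 to 4.75 CPM in HEV control against 0 to 5.22 CPM in FRC control libraries. The groups overlapped throughout. HEV over FRC was 1.23 ± 0.99 on the log2 scale (adjusted p = 0.42) under PEG and 1.19 ± 1.41 (adjusted p = 0.61) in controls, so a difference of either sign was within the error. The 9 leukocyte markers summed to 51.04 to 145.3 CPM in HEV PEG against 69.22 to 281.9 CPM in FRC PEG libraries, and to 81.94 to 258.8 CPM in HEV control against 12.48 to 122.8 CPM in FRC control libraries, and their part in the Tgfb1 level was not tested. The 5 platelet markers summed to 6.179 to 34.07 CPM in HEV PEG against 9.402 to 28.39 CPM in FRC PEG libraries. In controls they summed to 10.82 to 28.79 CPM in HEV against 9.182 to 60.58 CPM in FRC, and their part was not tested either.

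The latency genes were lower in HEV but still read in every library. Ltbp1, which links latent TGF-beta to fibrillin and fibronectin, had 62.11, 63.55, 99.05, 96.63, 150.3 and 60.75 CPM in HEV PEG libraries, against 231.8 to 653.5 CPM (median 369.9) in FRC PEG libraries. In controls it had 12.4, 35.66, 43.37 and 62.05 CPM in HEV, against 401 to 655.6 CPM (median 480.3) in FRC. HEV over FRC was -2.15 ± 0.33 on the log2 scale (adjusted p = 0.000198) under PEG and -3.82 ± 0.40 (adjusted p = 3.02e-05) in controls. Ltbp3, which helps fold and secrete the latent complex, had 9.07 to 48.43 CPM in HEV PEG against 108.1 to 199.6 CPM in FRC PEG libraries, and 11.25 to 27.38 CPM in HEV control against 80.22 to 197.4 CPM in FRC control libraries. Its log2 fold change was -3.01 ± 0.34 (adjusted p = 1.54e-05) under PEG and -3.34 ± 0.31 (adjusted p = 1.12e-05) in controls.

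The 3 target genes split. Pmepa1, a transmembrane protein that binds SMADs and damps the signal, had 6.71 to 15.04 CPM in HEV PEG against 53.66 to 164.2 CPM in FRC PEG libraries, and 4.95 to 17.59 CPM in HEV control against 161.6 to 269.7 CPM in FRC control libraries. Its log2 fold change was -3.34 ± 0.31 (adjusted p = 2.54e-06) under PEG and -4.52 ± 0.42 (adjusted p = 1.19e-05) in controls. Ccn2, a matricellular protein also called connective tissue growth factor, had 4.86 to 18.36 CPM in HEV control and 17.73 to 65.19 CPM in FRC control libraries. The ranges overlapped, and the log2 fold change of -1.77 ± 0.60 reached an adjusted p of 0.0497. That call was lost when 9 of the 11 libraries were left out in turn, with adjusted p up to 0.1455. Under PEG Ccn2 had 7.78 to 35.71 CPM in HEV and 10.89 to 23.29 CPM in FRC, a log2 fold change of 0.06 ± 0.42 (adjusted p = 0.94). Both comparisons of Ccn2 use the FRC libraries whose PEG change was known when the set was chosen.

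Tgfbi, an integrin-binding matrix protein, was the most abundant member in all 4 groups. It had 500.3 to 1392 CPM in HEV PEG against 464.7 to 1047 CPM in FRC PEG libraries, and 797.5 to 1070 CPM in HEV control against 420.4 to 1148 CPM in FRC control libraries. HEV over FRC was 0.28 ± 0.15 on the log2 scale (adjusted p = 0.21) under PEG and 0.54 ± 0.22 (adjusted p = 0.0956) in controls. In controls the difference passed without HEV control library 8, at 0.92 and an adjusted p of 0.00293.

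**Figure D2:**
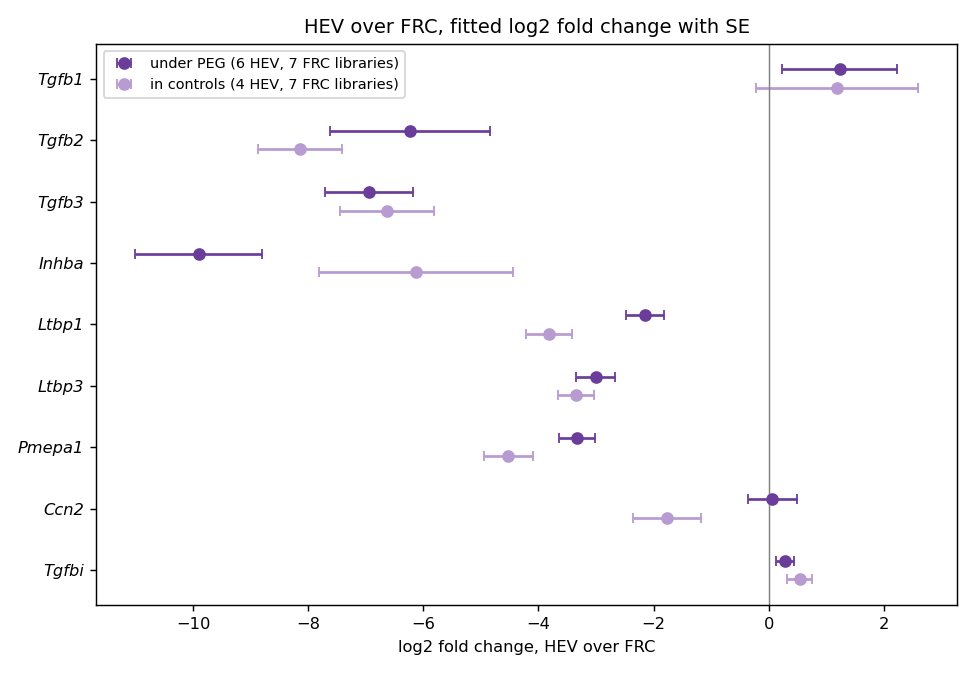
Fitted log2 fold change of HEV over FRC for each gene, under PEG (dark) and in controls (light), with SE as the error bar; 0 is no difference. Inhba, Tgfb2 and Tgfb3 lie farthest left, between -9.90 and -6.13, and Tgfb1 and Tgfbi lie right of 0 without passing the test.

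With single libraries left out in turn, the log2 fold changes of HEV over FRC stayed negative for the 6 genes that passed in both comparisons. Under PEG the widest spread was that of Tgfb2, with -5.13 without HEV PEG library 7 and -7.49 without FRC PEG library 10, and Inhba was -11.0 without HEV PEG library 14, which held the only read. Tgfb3 was -6.35 without HEV PEG library 7 and -7.66 without HEV PEG library 23. In controls, leaving out HEV library 8 gave -5.87 for Tgfb3, -3.23 for Ltbp1 and -5.20 for Pmepa1, leaving out HEV library 9 gave -7.74 for Tgfb3, and leaving out HEV library 24 gave -8.73 for Tgfb2. All of these, other than Inhba without library 8, still passed.

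Per transcript length, using the deposited RPKM scaled by size factor, the order of levels differed between the cell types. In HEV PEG libraries the leading genes were Tgfbi at 216.5 ± 98.1 RPKM (SD, n = 6), Ltbp1 at 8.24 ± 3.32 RPKM and Ccn2 at 5.42 ± 3.47 RPKM. In HEV controls Tgfbi averaged 255.6 ± 35.4 RPKM (SD, n = 4), Ltbp1 3.60 ± 1.90 RPKM and Ccn2 3.21 ± 2.06 RPKM, and all other members averaged no more than the 2.24 ± 1.06 RPKM of Ltbp3. Only Tgfbi stood clear of its neighbour in HEV. In FRC PEG libraries Inhba stood eighth, at 4.87 ± 2.25 RPKM (SD, n = 7), beside Ccn2 at 5.54 ± 1.60 RPKM. In FRC controls Tgfbi averaged 215.1 ± 85.9 RPKM (SD, n = 7), Ltbp1 46.3 ± 8.3, Tgfb3 25.4 ± 10.1, Pmepa1 23.3 ± 4.3, Ltbp3 20.7 ± 5.9, Inhba 17.1 ± 9.0, Ccn2 11.0 ± 5.1, Tgfb2 5.85 ± 1.79 and Tgfb1 0.50 ± 0.67 RPKM. In that order each neighbouring pair overlapped between libraries except Tgfbi with Ltbp1 and Tgfb2 with Tgfb1.

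In FRC the PEG libraries held lower levels of Inhba, Pmepa1 and Ccn2 than the control libraries. In FRC no gene of 14595 passed at an adjusted p under 0.05 (0%; 6.78% had an unadjusted p under 0.05, DESeq2 called 55 genes and limma-voom 25), and since the members were picked from this contrast the values below are descriptive. Inhba had 18.65, 16.69, 1.70, 21.9, 19.73, 10.62 and 23.0 CPM in FRC PEG libraries. FRC control libraries had 36.61, 38.85, 47.28, 98.79, 58.55, 95.08 and 18.45 CPM. All 7 PEG libraries were below the control median of 47.28 CPM, and the groups overlapped through the lowest control, library 21. The group means were 16.0 ± 7.5 CPM under PEG and 56.2 ± 30.3 CPM in controls (SD, n = 7 each), and the fitted log2 fold change was -1.76 ± 0.45 (SE).

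Pmepa1 had 131.9, 164.2, 160.1, 53.66, 138.6, 99.63 and 108.3 CPM in FRC PEG libraries. FRC control libraries had 186.6, 182.8, 161.6, 269.7, 243.9, 186.5 and 248.8 CPM. All 7 PEG libraries were below the control median of 186.6 CPM, and 1 PEG library overlapped the lowest control. The log2 fold change was -0.78 ± 0.22. Ccn2 had 14.88, 17.56, 22.5, 10.89, 23.29, 19.89 and 12.32 CPM under PEG. FRC control libraries had 38.02, 21.28, 30.2, 26.7, 17.73, 43.42 and 65.19 CPM. Again all 7 PEG libraries lay below the control median of 30.2 CPM with overlap, and the log2 fold change was -0.88 ± 0.33.

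The other 6 members had fitted FRC changes near 0 or with wide errors. These were -0.23 ± 0.19 for Ltbp1, -0.08 ± 0.19 for Tgfb3, 0.03 ± 0.11 for Tgfbi, 0.04 ± 0.17 for Ltbp3, 0.21 ± 0.27 for Tgfb2 and 0.62 ± 1.00 for Tgfb1 on the log2 scale. The median over the 9 members was -0.08, beside 0.01 over all genes tested.

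**Figure D3:**
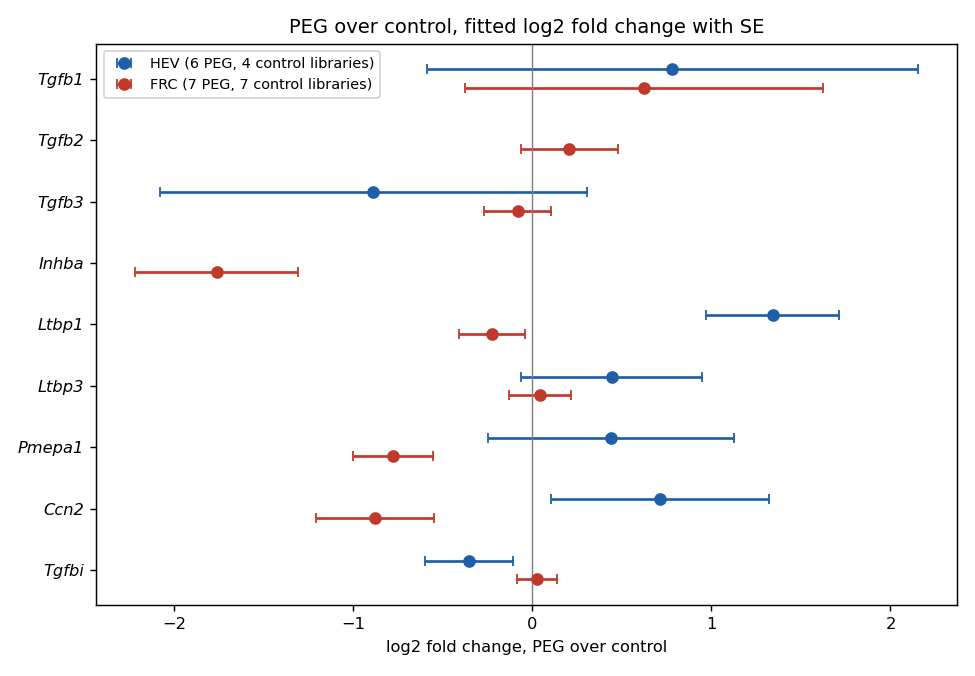
Fitted log2 fold change of PEG over control for each gene, in HEV (blue) and FRC (red), with SE as the error bar; Tgfb2 and Inhba have no HEV point because they fell under the count filter there. In HEV, Ltbp1 lies highest at 1.34, and in FRC, Inhba, Pmepa1 and Ccn2 lie at -1.76, -0.78 and -0.88.

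Within the inferred pools Inhba was lower in FRC PEG than in control libraries every time, with differences of -1.65, -1.87 and -1.70 on the log2(CPM + 1) scale. Pmepa1 differed by -0.22 in libraries 1 to 8, by -1.41 in libraries 9 to 16 and by -1.06 in libraries 17 to 24. Ccn2 differed by -0.68, -0.36 and -1.69. The Pmepa1 difference was therefore smallest in the pool of libraries 1 to 8, where both groups had 3 libraries and overlapped. Against the mean of the controls in its own pool, Inhba and Pmepa1 were lower in 7 of 7 PEG libraries, and Ccn2 in 6 of 7. These counts restate the contrast the members were picked from and add no support to it. The same count was not made over all genes. Among FRC libraries the mean log2(CPM + 1) of the epithelial markers had a median of 4.05 under PEG and 2.08 in controls. With that level in the model the log2 fold changes were -2.06 ± 0.53 for Inhba, -0.77 ± 0.27 for Pmepa1 and -0.63 ± 0.37 for Ccn2. The 9 immediate early genes, which rise during cell handling, summed to 8429 to 23410 CPM (median 14380) in FRC PEG and 12810 to 19170 CPM (median 15930) in FRC control libraries, and their part was not tested.

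In HEV no member passed the PEG test. No gene of 14308 passed an adjusted p under 0.05 (0%; 6.19% had an unadjusted p under 0.05, DESeq2 called 116 genes and limma-voom 0). Tgfb2 and Inhba fell under the count filter, leaving 7 of 9 tested. Ltbp1 stood out in size, and its per-library levels are given above with the cell types. All 6 HEV PEG libraries were above the control median of 39.52 CPM, and the groups overlapped at the highest control, library 24. Counts on 1 side of the control median were not made over all genes, here or in FRC. Ltbp1 averaged 88.7 ± 34.9 CPM under PEG (SD, n = 6) and 38.4 ± 20.6 CPM in controls (n = 4), a log2 fold change of 1.34 ± 0.37 (unadjusted p = 0.00395, adjusted p = 0.77, edgeR). It was higher in PEG than in control libraries of the same pool by 2.24, 1.25 and 0.99 on the log2(CPM + 1) scale. The first of these sets 1 PEG library against 1 control library, at 62.11 and 12.4 CPM. The second sets 3 PEG libraries against 1 control, and the third 2 against 2 with overlap. DESeq2 gave Ltbp1 an adjusted p of 0.046. The mean log2(CPM + 1) of the epithelial markers had a median of 5.35 in HEV PEG and 3.87 in HEV control libraries, and with that level in the model the Ltbp1 change was 1.40 ± 0.40.

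Pmepa1 had 9.87, 9.40, 15.04, 11.56, 12.72 and 6.71 CPM in HEV PEG, against 17.59, 4.95, 7.30 and 5.63 CPM in HEV control libraries. All 6 PEG libraries exceeded the control median, and control library 8 exceeded all of them. Its log2 fold change was 0.44 ± 0.69 (adjusted p = 0.93). Ccn2 had 35.71, 7.78, 20.75, 10.27, 16.98 and 9.62 CPM in HEV PEG, against 11.45, 18.36, 4.91 and 4.86 CPM in HEV control libraries, and 5 of 6 PEG libraries were above the control median. Its log2 fold change was 0.71 ± 0.61 (adjusted p = 0.87). Ltbp3, Tgfb1, Tgfb3 and Tgfbi changed by 0.44 ± 0.51, 0.78 ± 1.37, -0.89 ± 1.19 and -0.35 ± 0.25 on the log2 scale, with adjusted p between 0.84 and 0.94. With each library left out in turn none of the 7 members passed in HEV or changed sign, but several values moved by more than 1.5 times. Ltbp1 stayed between 1.07 and 1.59. Ccn2 was 1.46 without control library 9, and 0.47 to 0.90 without any other. Pmepa1 was 0.07 without control library 9, 0.82 without PEG library 7 and 0.82 without control library 8. The range was 0.15 to 1.54 for Tgfb1, -1.86 to -0.32 for Tgfb3, 0.18 to 0.66 for Ltbp3 and -0.66 to -0.16 for Tgfbi. The median over the 7 members tested was 0.44, beside 0.01 over all genes tested.

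The difference of the PEG effect, HEV minus FRC, is a description for these genes because it holds the FRC contrast they were picked from. It was 1.44 ± 0.46 for Ltbp1, 1.15 ± 0.43 for Pmepa1 and 1.72 ± 0.67 for Ccn2 on the log2 scale. Inhba gave -4.80 ± 1.70, and -0.26 without HEV control library 17, so 1 library set that value. Tgfb2 gave 2.52 ± 1.50, and 1.45 without HEV PEG library 15. Tgfb3 gave -0.52 ± 0.88, and 0.75 without HEV control library 9. The remaining values were 0.36 ± 0.40 for Ltbp3, -0.37 ± 0.25 for Tgfbi and 0.0057 for Tgfb1, where no usable SE follows from a change so close to 0. Across all 18203 genes, 2 passed the test of this difference (0.011%).

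**Figure D4:**
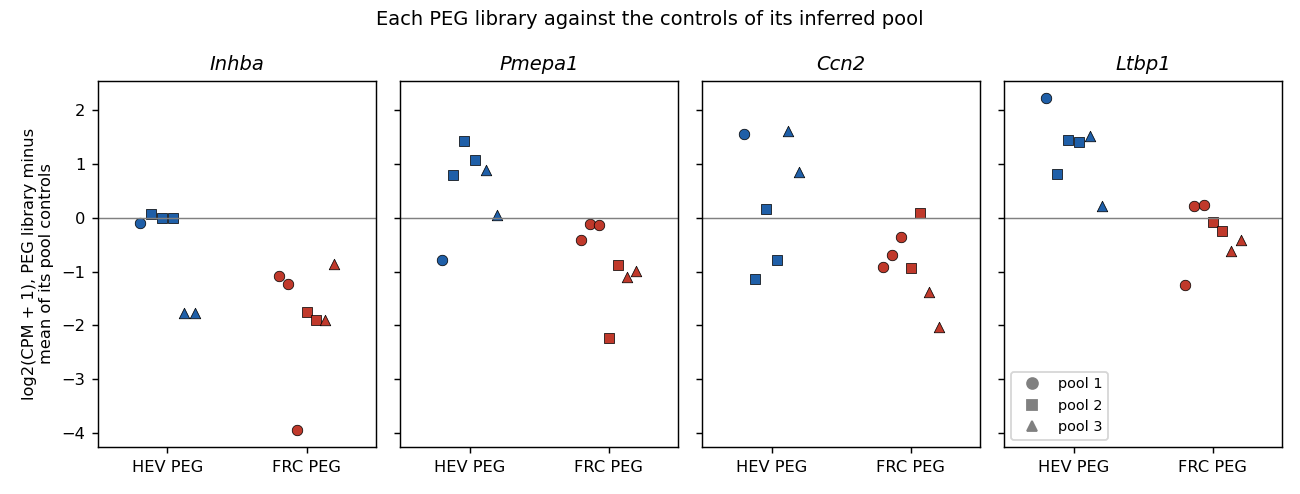
Each PEG library minus the mean of the controls of its inferred pool, in log2(CPM + 1), for Inhba, Pmepa1, Ccn2 and Ltbp1; HEV PEG (blue) stands left and FRC PEG (red) right, and marker shape gives the pool. Ltbp1 is above 0 in 6 of 6 HEV libraries, with a single HEV control library in pool 1 and in pool 2. Inhba and Pmepa1 are below 0 in 7 of 7 FRC libraries, a description of the contrast they were picked from. Such counts were not made over all genes.

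Around the 9 genes, 60 further genes of the pathway were listed by role. None passed for PEG in FRC (0 of 55 tested) or in HEV (0 of 47 tested). Of 54 genes tested under PEG, HEV had 10 at a higher and 26 at a lower level than FRC, and of 55 tested in controls 9 were higher and 30 lower. Only 47 of the 60 passed the count filter within HEV, so some genes entered through their FRC reads. Their direction was largely fixed by the filter, which may raise the counts of lower genes here and in the lists below. Over all genes tested 12.5% were higher and 14.4% lower in HEV under PEG, and 10.4% were higher and 14.2% lower in controls, and the counts of the lists below stand beside these shares. The median log2 fold change of these genes was -0.78 under PEG and -1.68 in controls, and it kept those values with the genes unread in HEV set to the floor of 3 reads over the group.

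Among other latency and microfibril genes 1 was higher and 4 lower in HEV under PEG, of 7 tested. Emilin1, a matrix glycoprotein that holds back TGF-beta processing, was at -3.97 ± 0.25 (adjusted p = 5.4e-08), the latency protein gene Ltbp4 at -2.08 ± 0.17 (adjusted p = 6.2e-07) and the fibrillin gene Fbn1 at -2.96 ± 0.30 (adjusted p = 5.8e-06). The exception was Nrros, which tethers latent TGF-beta at the surface of myeloid cells. It averaged 261 ± 65.6 CPM in HEV PEG against 6.91 ± 7.62 CPM in FRC PEG libraries, and 326.3 ± 102.4 CPM in HEV control against 6.00 ± 6.04 CPM in FRC control libraries, with a log2 fold change of 7.61 ± 0.85 (adjusted p = 2.1e-05) under PEG.

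Among activators of latent TGF-beta 1 was higher and 7 lower in HEV under PEG, of 9 tested. Mmp2, a matrix protease, was at -8.02 ± 0.94 (adjusted p = 4.1e-05) and Itgb5, an integrin chain, at -5.98 ± 0.79 (adjusted p = 5.9e-05). Itgb8, the integrin chain that partners Itgav in releasing ligand, had no read in the 4 HEV control libraries, against 899 in the 7 FRC control libraries. Thbs1, a secreted activator, went the other way, with 770.8 ± 395.6 CPM in HEV PEG against 168.1 ± 65.5 CPM in FRC PEG libraries (log2 fold change 2.38 ± 0.32, adjusted p = 7.1e-05).

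Among the receptor genes 2 of 8 tested were higher in HEV under PEG and none lower, beside 12.5% and 14.4% of all genes. These were Eng, an endothelial co-receptor, at 2.68 ± 0.22 (adjusted p = 7.5e-07) and Acvrl1, an endothelial type I receptor, at 1.19 ± 0.21 (adjusted p = 0.00071). Tgfbr2, the type II receptor for TGF-beta, averaged 191.7 ± 28.1 CPM in HEV PEG and 231.1 ± 87.2 CPM in FRC PEG libraries, and 257.4 ± 23.0 CPM in HEV control and 214.8 ± 42.9 CPM in FRC control libraries. It passed in neither comparison. Tgfbr1, its type I partner, was lower in HEV in controls (-1.68 ± 0.52, adjusted p = 0.035), with a value of -0.11 ± 0.35 under PEG.

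Of 5 antagonists 1 was higher and 4 lower in HEV in both comparisons. Only 3 of the 5 passed the count filter within HEV, so for the others the direction was largely fixed by their FRC reads. Dcn, a proteoglycan that binds TGF-beta, was at -11.4 ± 1.1 (adjusted p = 6.9e-06) under PEG, and the activin binder Fst was at -8.11 ± 1.1 (adjusted p = 0.0001). Bambi, a decoy receptor, was higher in HEV, at 1.98 ± 0.29 (adjusted p = 0.00015). Among SMADs and their regulators none was lower and 3 of 9 were higher in HEV under PEG, namely Tgif1, Skil and Smad7, at 1.80 ± 0.31, 1.18 ± 0.30 and 0.67 ± 0.23. Of 15 other targets 2 were higher and 11 lower in HEV under PEG, including Col1a1 at -11.5 ± 0.55 and Angptl4 at -4.04 ± 0.30, while Bhlhe40, a transcription factor, was higher at 3.23 ± 0.26. Of the listed genes, Col1a1, Col3a1 and Dcn are also on the fibroblast marker list and Acta2 is on the smooth muscle list. Of the 5 other ligands of the activin branch only Inhbb was tested under PEG, and its level was 33.4 ± 20.9 CPM in HEV PEG against 15.2 ± 10.2 CPM in FRC PEG libraries without passing.

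In the FRC PEG contrast, given as a description, Thbs1 averaged 168.1 ± 65.5 CPM under PEG and 288.6 ± 96.0 CPM in controls, a log2 fold change of -0.75 ± 0.29. Dcn averaged 10610 ± 2366 CPM under PEG and 7312 ± 755.5 CPM in controls (0.56 ± 0.13). Smad3, a signal transducer of the branch, was at -0.59 ± 0.32 and the collagen gene Col3a1 at -0.45 ± 0.17. In HEV Lrrc32, which anchors latent TGF-beta on cell surfaces, was at 1.03 ± 0.39 and Smad4, the shared SMAD partner, at -1.15 ± 0.34, and neither passed after adjustment.

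Patterns over libraries were compared with 11683 genes in the 14 FRC libraries, as Pearson correlation of log2(CPM + 1) and as description only, since libraries share pools and depth. The best of so many genes over so few libraries can also reach a high r by chance. The gene most like Inhba was Myom1 (r = 0.811), that most like Pmepa1 was Ost4 (r = 0.889) and that most like Ccn2 was Zmym3 (r = 0.805). Ltbp1 was most like Lin7c (r = 0.922), Ltbp3 most like Cdk11b (r = 0.909), Tgfb2 most like Chrd (r = 0.842) and Tgfb3 most like Gnai3 (r = 0.952). Tgfbi was most like Sema4d (r = 0.945), but r was 0.448 after treatment and pool were taken out. Tgfbi in FRC separated the libraries by number, with 420.4 to 657.9 CPM in libraries 10 to 24 and 830.9 to 1148 CPM in libraries 1 to 9, and no overlap. Over the 10 HEV libraries and 10861 genes, Ltbp1 was most like Adgrg6 (r = 0.946), Pmepa1 most like Alg11 (r = 0.939) and Ccn2 most like Stt3a (r = 0.943).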

How the data were processed

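RNA-seq counts of 24 sorted Peyer's patch libraries were analysed. Per the file headers, the deposited count is the number of uniquely aligned reads per gene model, and the second deposited value is an RPKM that the authors scaled by a size factor per library. GSNAP and the build mm9 are named in the submitters' processing notes, while the labels' protocol names a human build, which was not used. Counts carry no strand information. Symbols came from RefSeq GRCm38.p6 by Entrez identifier, which named 85.0% of gene models and 97.29% of reads. In 10335 genes the RPKM was checked to be the count over the size factor, up to a gene constant, to a relative tolerance of 1e-06. That constant was within 1.5-fold of GENCODE exon length in 84.68% of 15194 genes.

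Counts were filtered (filterByExpr, minimum 10), TMM-normalised and fitted in edgeR 4.0.16 (R 4.3.3, with limma 3.58.1) by a robust quasi-likelihood model that held the inferred pool as covariate. The F test was two-sided, with Benjamini-Hochberg adjustment over all genes tested. Each SE was derived from the fold change and its F value. The scripts were tested on simulated counts. CPM is the count scaled to the reads assigned to genes, shown as log2 with a pseudocount of 1. Depth was 3115003 to 21710946 reads per library, and binomial intervals (95%, exact), like the floor of 3 counts, reflect counting error alone because PCR copies were not marked. Each library is from 1000 cells of a mouse, and FRC and HEV libraries were taken as independent although the labels do not say so. The members and the gene lists were chosen with earlier results of these data known. All 9 members are named, with up to 4 genes of smallest p per pathway list and comparison, up to 3 in the FRC PEG contrast, and genes of highest correlation. A gene that the rule would also name is not reported here. Alternatives were other size factors, filters of none or a minimum of 50, DESeq2 1.42.0, limma-voom, no covariate, pool with index, library subsets, an epithelial covariate, all 24 libraries in 1 model and each library left out.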

Additional observations from a re-analysis of the deposited data

Results flagged for a closer look

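In 36 groups of a gene and a condition, 6 held a library far from the others of its group, where the nominal chance rate is about 1 in 20. That rate was not checked for CPM values, and the groups share libraries, so no excess is read from it. Tgfb1 was at 3.602 CPM in FRC PEG library 19, against 1.891 CPM in the next library. Inhba was at 0.05594 CPM, a single read, in HEV PEG library 14, while the other HEV PEG libraries held no read. A lone read among zeros meets the criterion by construction, so that chance rate does not apply to it. Inhba was at 9.206 CPM in HEV control library 17, against 0.139 CPM in the next. Ltbp3 was at 27.38 CPM in HEV control library 24, against 13.09 CPM in the next. Tgfbi was at 1392 CPM in HEV PEG library 7, against 781.2 CPM in the next, and at 1070 CPM in HEV control library 9, against 826.5 CPM in the next. For Pmepa1, every PEG library was below the control median in FRC and above it in HEV, with a fitted difference of 1.154 on the log2 scale, for which no p is given because the gene was picked from the FRC contrast. That the sides of the control median differ between the cell types was not tested.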

How the results depend on the processing

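No paired analysis was possible because every library carries its own number and nothing ties FRC to HEV libraries by mouse. Counts of genes passing depended on the method. For PEG in FRC, 0 genes passed, against 177 with no filter, 55 by DESeq2 and 25 by limma-voom. For PEG in HEV, 0 passed, against 141 with no filter, 116 by DESeq2 and 18 in the model of all 24 libraries. Each library left out in turn gave 0 in both. Between cell types in controls 3869 passed, with 2276 in libraries 10 to 24, 1477 in libraries 1 to 9 and 3121 to 3791 with a library left out. Under PEG 4022 passed, with 1137 in libraries 1 to 9 and 3448 to 3944 with a library left out. For the difference of the PEG effect 2 passed, against 38 with no filter, 360 by DESeq2, 0 by limma-voom, 5 without covariate, 0 in libraries 10 to 24, 19 in libraries 1 to 9 and 1 to 16 with a library left out.

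Values that changed sign were never called. For PEG in HEV, libraries 1 to 9 alone gave -2.76 for Tgfb1, -0.30 for Ltbp3, -0.17 for Pmepa1 and 0.61 for Tgfbi, libraries 10 to 24 gave 0.47 for Tgfb3, and pool with index gave -0.0022 for Ltbp3. For HEV over FRC in controls Tgfb1 was -0.61 in libraries 10 to 24 and -0.0020 to 2.15 with a library left out, and Tgfbi was -0.11 in libraries 1 to 9. For HEV over FRC under PEG Tgfb1 was -1.82 in libraries 1 to 9, and Ccn2 was -0.0415 by limma-voom, -0.0012 without covariate, -0.28 in libraries 10 to 24, -0.10 with the epithelial covariate and -0.31 to 0.33 with a library left out. The cause was not tested. Ccn2 in controls also missed the threshold with DESeq2 size factors (adjusted p = 0.0506) and no filter (0.057). Inhba in controls missed it in libraries 10 to 24 (0.19). The 3115003 reads of HEV PEG library 16 limit what it shows of rare transcripts.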
